A study of Mus musculus with 8 samples.

Results

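The 10 genes described here encode granins and the enzymes and partner proteins that cut prohormones: Chga, Chgb, Scg2, Scg3, Vgf, Pcsk1, Pcsk2, Cpe, Scg5 and Pcsk1n. They were chosen by name for these roles, out of 20715 genes listed in the deposited tables. RNA of isolated pancreatic islets was sequenced from C57BL/6 mice aged 12 weeks, in 4 ob/ob libraries and 4 ob/+ libraries. The ob allele is a mutation of Lep, the gene of the appetite-restraining hormone leptin. Homozygous ob/ob mice lack functional leptin and grow obese with insulin resistance, as is well known, and ob/+ mice carry 1 mutant and 1 intact copy. Both groups therefore carried the mutant allele, and Lep was listed with no value in any library, which leaves the genotype labels unchecked by its own level. Nothing in the labels says whether a library stands for 1 mouse or a pool, so p-values here reflect only library-to-library spread, part of which may be technical.

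Peptide hormones are made as larger precursors that travel through the endoplasmic reticulum and Golgi into dense-core secretory granules. Granins are acidic proteins that aggregate with hormones in the Golgi and help to form these granules, and several are themselves cut into peptides. Inside the granule, prohormone convertases cut precursors such as proinsulin at pairs of basic residues, and a carboxypeptidase then trims the exposed basic residues. These genes are active in several endocrine cell types of the islet, so values in bulk islet RNA sum over beta, alpha, delta and PP cells, and fewer cells of a type and less RNA per cell cannot be told apart.

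The values were in FPKM, read fragments scaled to transcript length and library size, which allow levels to be compared between genes. Summed FPKM ranged from 920734 to 1004230 in ob/ob libraries and from 820968 to 880570 in ob/+ libraries. The endocrine identity of the tissue was plain, since the insulin genes Ins1 and Ins2 took 57.1% to 65.6% of the summed FPKM in ob/ob libraries and 42.0% to 54.4% in ob/+ libraries. Genes of the acinar cells, the enzyme-secreting cells around the islets, took 3.33% to 11.6% in ob/ob libraries and 7.43% to 25.2% in ob/+ libraries, with the highest share in ob/+ 4. This library was the lowest ob/+ library for 10 of the 10 genes. Without ob/+ 4, 1104 of 11612 tested genes were higher in ob/ob and 3728 lower, beside 965 and 1243 of 11747 with it. Results of the 10 genes that change without it are given both ways.

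Promoter sequence was available for 8 of the 10 genes as RefSeq windows on GRCm38.p6, from 250 bases before to 50 bases after the annotated start. The 8 letters TGACGTCA, the cyclic AMP response element, read the same on both strands and were found in the windows of Scg2, Chgb and Pcsk1. The window of Chga held TGACGTAA. The last 120 bases before the RefSeq start are shown for these 4 genes, 5′ to 3′ on the coding strand with the 8 letters in capitals. These are the 4 genes whose windows held TGACGTCA or TGACGTAA. Of them, Chgb and Scg2 rose in ob/ob islets, whereas Chga and Pcsk1 did not pass the test. Scg3 and Scg5 also rose, and their windows held neither of these motifs. A link between the motifs and the changes was not tested. By the GENCODE positions given below, the stretch of Chgb lies inside the gene, as do parts of those of Scg2 and Pcsk1. The stretches lie at chr2:132781522-132781641 (plus strand) for Chgb, chr1:79440027-79440146 (minus strand) for Scg2, chr13:75089737-75089856 (plus strand) for Pcsk1 and chr12:102554821-102554940 (plus strand) for Chga.
Chgb: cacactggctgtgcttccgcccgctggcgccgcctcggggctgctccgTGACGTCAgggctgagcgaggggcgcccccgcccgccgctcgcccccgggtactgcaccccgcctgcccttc
Scg2: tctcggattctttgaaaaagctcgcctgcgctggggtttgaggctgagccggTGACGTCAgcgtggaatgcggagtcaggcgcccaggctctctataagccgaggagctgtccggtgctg
Pcsk1: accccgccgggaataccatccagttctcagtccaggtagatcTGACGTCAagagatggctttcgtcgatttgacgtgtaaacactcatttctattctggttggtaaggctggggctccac
Chga: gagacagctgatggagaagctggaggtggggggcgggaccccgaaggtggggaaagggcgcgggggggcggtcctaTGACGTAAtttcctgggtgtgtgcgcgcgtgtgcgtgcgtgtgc
The capitals begin 72 bases before the RefSeq start in Chgb, 68 in Scg2, 78 in Pcsk1 and 44 in Chga. Searched on both strands, TGACGTCA was present in 588 of 32851 windows, or 1.79%, and in 3.15% of the windows of genes tested here. TGACGTAA was present in 0.499% of all windows and in 0.768% of those of tested genes. The shorter TGACG, which lies within both longer motifs, was present in 20.8% of all windows, in 31.0% of those of tested genes and in 7 of the 8 windows of these genes, all but that of Pcsk1n. The motifs were chosen with these letters in view, so the shares are a description.

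Of the 10 genes, 6 were higher in ob/ob islets and 0 were lower, by limma on log2(FPKM + 1) with a Benjamini-Hochberg adjusted p under 0.05 over 11747 tested genes. All 10 passed the filter on low values. Over all tested genes 18.8% were called, 8.21% higher and 10.6% lower. The genes that rose were 4 of the 5 granins (Vgf, Chgb, Scg2 and Scg3), the carboxypeptidase gene Cpe and the convertase chaperone gene Scg5. Chga, Pcsk1, Pcsk2 and Pcsk1n did not pass. At an unadjusted p under 0.05, 8 of the 10 differed. The share of all tested genes at that threshold was not computed, and is at least the 18.8% called after adjustment. For the 6 genes that rose, every ob/ob library was above every ob/+ library, a pattern shown by 9.75% of all tested genes. The median log2 fold change of the 10 genes was 0.36, beside -0.07 over all tested genes.

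**Figure D1:**
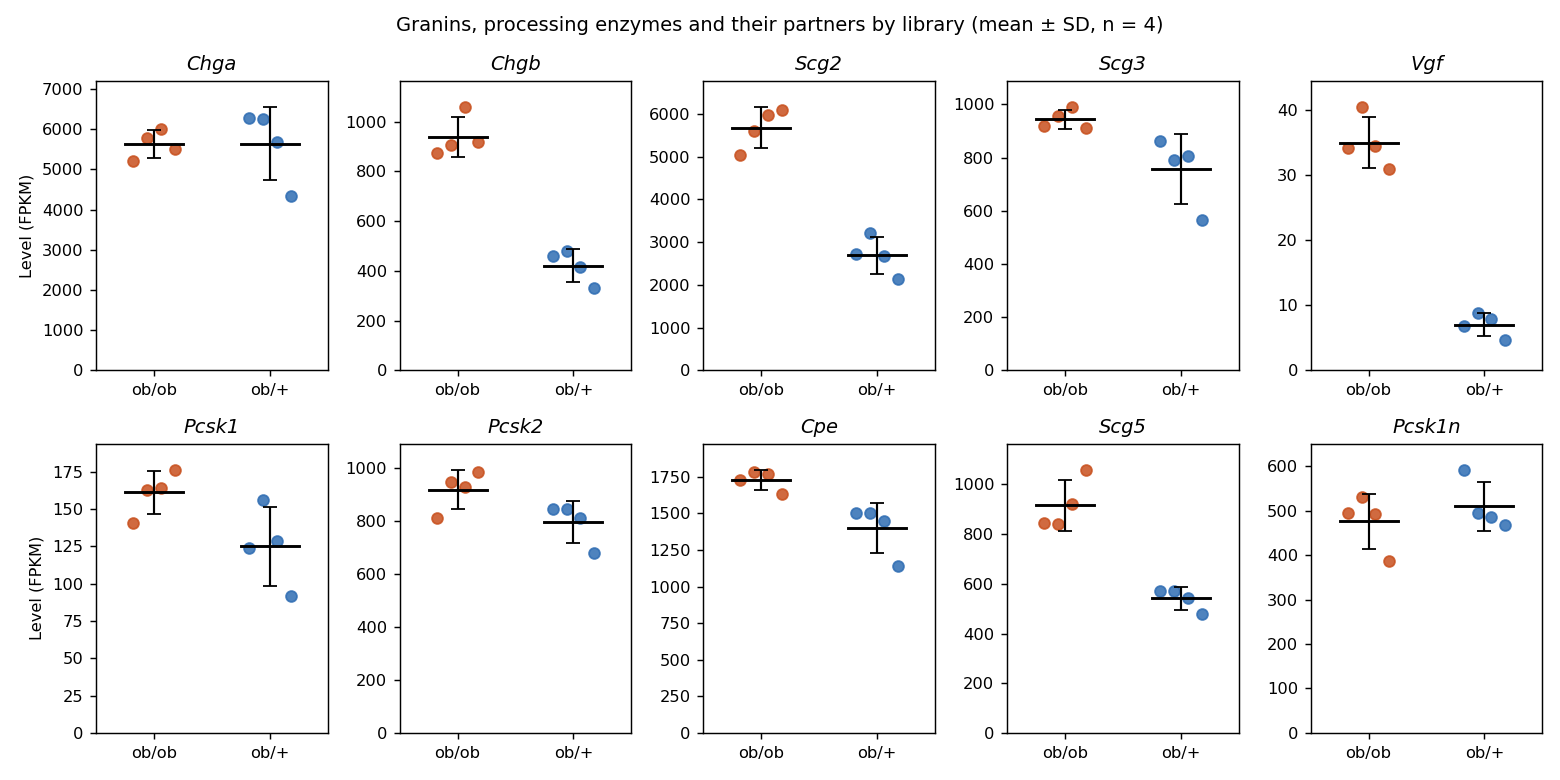
Level of each of the 10 genes in FPKM (vertical axes, starting at 0), by library, with ob/ob left of ob/+. Points are libraries in numerical order, the long bar is the mean and the whiskers are 1 SD (n = 4); Vgf, Chgb, Scg2 and Scg5 show well separated groups, and ob/+ 4, the rightmost point, is the lowest ob/+ library in all 10 panels.

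The largest change among the granins was that of Vgf, which encodes a neurosecretory protein cut into several peptides (GRCm38 chromosome 5, 137026392 to 137033351, plus strand). Vgf had 34.2, 40.5, 34.5 and 30.9 FPKM in ob/ob libraries, against 6.87, 8.74, 7.87 and 4.64 FPKM in ob/+ libraries. The groups were far apart, and the lowest ob/ob library was above every ob/+ library. Vgf averaged 35.02 ± 3.97 FPKM in ob/ob and 7.03 ± 1.77 FPKM in ob/+ (SD, n = 4 each), a 4.98-fold difference with a log2 fold change of 2.19 ± 0.14 (SE; limma adjusted p = 8.94e-10). Among all genes ranked by mean level, Vgf stood at place 1288 in ob/ob and 6383 in ob/+.

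Chromogranin B, encoded by Chgb (chromosome 2, 132781278 to 132795079, plus strand), is a major granule matrix protein. Chgb had 873, 905, 1058 and 918 FPKM in ob/ob libraries, against 460, 480, 415 and 331 FPKM in ob/+ libraries. The groups did not overlap, with ob/ob 3 the highest and ob/+ 4 the lowest library. Chgb averaged 938.7 ± 81.9 FPKM in ob/ob and 421.4 ± 66.1 FPKM in ob/+, a 2.23-fold difference (log2 fold change 1.16 ± 0.10, limma adjusted p = 4.35e-08).

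Secretogranin II, encoded by Scg2 (chromosome 1, 79434669 to 79440120, minus strand), is a granule protein and the precursor of the peptide secretoneurin. Scg2 had 5043, 5594, 5980 and 6106 FPKM in ob/ob libraries, against 2729, 3208, 2672 and 2142 FPKM in ob/+ libraries. Every ob/ob library lay well above the highest ob/+ library. Scg2 averaged 5681 ± 478 FPKM in ob/ob and 2688 ± 436 FPKM in ob/+, a 2.11-fold difference (log2 fold change 1.09 ± 0.10, limma adjusted p = 3e-07). By mean level Scg2 was the 7th gene of the ob/ob libraries and the 25th of the ob/+ libraries.

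Chromogranin A, encoded by Chga (chromosome 12, 102554969 to 102565028, plus strand), is the classical marker protein of endocrine granules. Chga had 5220, 5785, 6005 and 5516 FPKM in ob/ob libraries, against 6275, 6264, 5683 and 4351 FPKM in ob/+ libraries. The groups overlapped, and the ob/+ libraries held both the highest and the lowest values. Chga averaged 5632 ± 339 FPKM in ob/ob and 5644 ± 905 FPKM in ob/+, with a log2 fold change of 0.01 and a 95% interval of -0.20 to 0.22 (limma adjusted p = 0.958). Without ob/+ 4 its log2 fold change was -0.11.

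Secretogranin III, encoded by Scg3 (chromosome 9, 75643189 to 75684056, minus strand), binds chromogranin A and cholesterol-rich granule membrane. Scg3 had 917, 958, 989 and 910 FPKM in ob/ob libraries, against 861, 792, 805 and 564 FPKM in ob/+ libraries. The groups did not overlap, but the highest ob/+ library was close to the lowest ob/ob library. Scg3 averaged 943.3 ± 36.8 FPKM in ob/ob and 755.7 ± 131 FPKM in ob/+, a 1.25-fold difference (log2 fold change 0.34 ± 0.11, limma adjusted p = 0.0319). Its call ended when any of the 4 ob/ob libraries was left out, with log2 fold changes of 0.31 to 0.35 and adjusted p from 0.0647 to 0.0828, and held without ob/+ 4 (log2 fold change 0.20, adjusted p = 0.0437). Over all 20 alternatives its adjusted p ranged from 0.000669 to 0.742.

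Of the cutting enzymes, Pcsk1 and Pcsk2 encode prohormone convertases 1 and 2, which act together on proinsulin in beta cells, and convertase 2 also cuts proglucagon in alpha cells. Pcsk1 (chromosome 13, 75089826 to 75134861, plus strand) had 141, 163, 164 and 176 FPKM in ob/ob libraries, against 124, 156, 129 and 91.4 FPKM in ob/+ libraries. The groups overlapped through ob/ob 1 and ob/+ 2. Pcsk1 averaged 161.0 ± 14.7 FPKM in ob/ob and 124.9 ± 26.5 FPKM in ob/+, with a log2 fold change of 0.38 and a 95% interval of 0.10 to 0.67, and missed the threshold (limma adjusted p = 0.0572). It passed without ob/ob 1, without ob/+ 2 and without ob/+ 4, with log2 fold changes of 0.45, 0.50 and 0.24 (limma adjusted p = 0.0386, 0.0021 and 0.0472). Without ob/+ 4 the change was thus smaller than with it, and its SE was 0.09 beside 0.13. Over the 20 alternatives of Pcsk1 the adjusted p ranged from 0.0021 to 0.448.

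Pcsk2 (chromosome 2, 143546156 to 143816285, plus strand) had 813, 949, 930 and 985 FPKM in ob/ob libraries, against 846, 846, 812 and 680 FPKM in ob/+ libraries. The groups overlapped, since ob/ob 1 lay below 2 of the ob/+ libraries. Pcsk2 averaged 919.2 ± 74.4 FPKM in ob/ob and 796.2 ± 78.7 FPKM in ob/+, with a log2 fold change of 0.21 and a 95% interval of 0.03 to 0.39 (limma adjusted p = 0.0981). Without ob/+ 4 its log2 fold change was 0.14 (limma adjusted p = 0.199).

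Cpe (chromosome 8, 64592542 to 64693054, minus strand) encodes carboxypeptidase E, which removes the basic residues left by the convertases. Cpe had 1730, 1784, 1766 and 1632 FPKM in ob/ob libraries, against 1501, 1500, 1449 and 1142 FPKM in ob/+ libraries. The groups did not overlap, and ob/+ 4 lay far below the other ob/+ libraries. Cpe averaged 1728 ± 67.8 FPKM in ob/ob and 1398 ± 173 FPKM in ob/+, a 1.24-fold difference (log2 fold change 0.31 ± 0.09, limma adjusted p = 0.0116). Without ob/+ 4 the log2 fold change was 0.22 and the adjusted p was 0.0308.

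Of the genes for partner proteins of the convertases, 1 of 2 rose. Scg5 (chromosome 2, 113776362 to 113829121, minus strand) encodes secretogranin V, the chaperone and inhibitor that convertase 2 needs to mature. Scg5 had 844, 841, 921 and 1058 FPKM in ob/ob libraries, against 570, 573, 544 and 477 FPKM in ob/+ libraries. Every ob/ob library exceeded every ob/+ library, with ob/ob 4 the highest. Scg5 averaged 916.0 ± 102 FPKM in ob/ob and 541.0 ± 44.5 FPKM in ob/+, a 1.69-fold difference (log2 fold change 0.76 ± 0.09, limma adjusted p = 6.56e-07).

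Pcsk1n (chromosome X, 7919822 to 7924410, plus strand) encodes proSAAS, a granule protein that inhibits convertase 1. Pcsk1n had 494, 531, 493 and 388 FPKM in ob/ob libraries, against 592, 495, 487 and 467 FPKM in ob/+ libraries. The groups overlapped, with the lowest value in ob/ob 4 and the highest in ob/+ 1. Pcsk1n averaged 476.7 ± 61.7 FPKM in ob/ob and 510.3 ± 55.6 FPKM in ob/+, with a log2 fold change of -0.10 and a 95% interval of -0.30 to 0.10 (limma adjusted p = 0.512).

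Placed in order of level, the 10 genes spanned a wide range in both groups. In ob/ob libraries Scg2 (mean 5681 FPKM) and Chga (5632 FPKM) led with overlapping ranges, and Scg2 exceeded Chga in 1 of the 4 libraries. Cpe followed apart from its neighbours. Scg3, Chgb, Pcsk2 and Scg5 then lay between means of 943.3 and 916.0 FPKM, each overlapping the next, and Pcsk1n, Pcsk1 and Vgf stood below them without overlap. In ob/+ libraries Chga led alone, above Scg2 in all 4 libraries, and Scg2 and Cpe followed without overlap. Pcsk2, Scg3, Scg5, Pcsk1n and Chgb came next, from 796.2 to 421.4 FPKM, each overlapping its neighbour in range. Chgb was therefore in the 5th place in ob/ob and the 8th in ob/+, and Pcsk1 and Vgf were last in both.

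The 10 genes together summed to 16110, 17550, 18340 and 17720 FPKM in ob/ob libraries, against 13970, 14320, 13000 and 10250 FPKM in ob/+ libraries. The groups of sums did not overlap. This was 1.70% to 1.99% of all FPKM in ob/ob libraries and 1.16% to 1.67% in ob/+ libraries. Chga and Scg2 made up 63.7% to 65.6% of the sum in ob/ob libraries and 63.3% to 66.1% in ob/+ libraries. The share of this pair overlapped between the groups.

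FPKM are relative to a library total, and the smaller changes moved with the choice of that total. Vgf, Chgb, Scg2 and Scg5 were called higher under all 20 alternatives, with log2 fold changes of 1.91 to 2.33 for Vgf, 0.87 to 1.28 for Chgb, 0.79 to 1.21 for Scg2 and 0.46 to 0.88 for Scg5. Leaving the acinar genes out of the total moved the median of all tested genes to -0.32, with 490 of 11747 higher and 6950 lower. Under that scaling Scg3 and Cpe had log2 fold changes of 0.04 and 0.02 and were no longer called, and Chga (-0.29, limma adjusted p = 0.0209) and Pcsk1n (-0.40, adjusted p = 0.00316) were called lower. Of these 2 values, that of Chga lies just above the shifted median and that of Pcsk1n below it. With the insulin genes left out of the total as well, the median was -0.06, with 1289 of 11747 tested genes higher and 1801 lower. Of the 10 genes 8 were then called higher and 0 lower, Scg3 (0.35), Cpe (0.33), Pcsk1 (0.40) and Pcsk2 (0.22) among them. Leaving the 10 most abundant genes out of the total moved the median to 0.03, with 1272 of 11747 tested genes higher and 629 lower. This added Pcsk1 (0.50) and Pcsk2 (0.33) to the genes called higher. Rescaling every library to the same sum gave a median of -0.23, with 521 of 11747 tested genes higher and 3124 lower. It ended the calls of Scg3 (0.16) and Cpe (0.14) and called Pcsk1n lower (-0.28). Over the 20 alternatives the adjusted p of Chga ranged from 0.0209 to 0.988 and that of Pcsk1n from 0.00316 to 0.976.

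**Figure D2:**
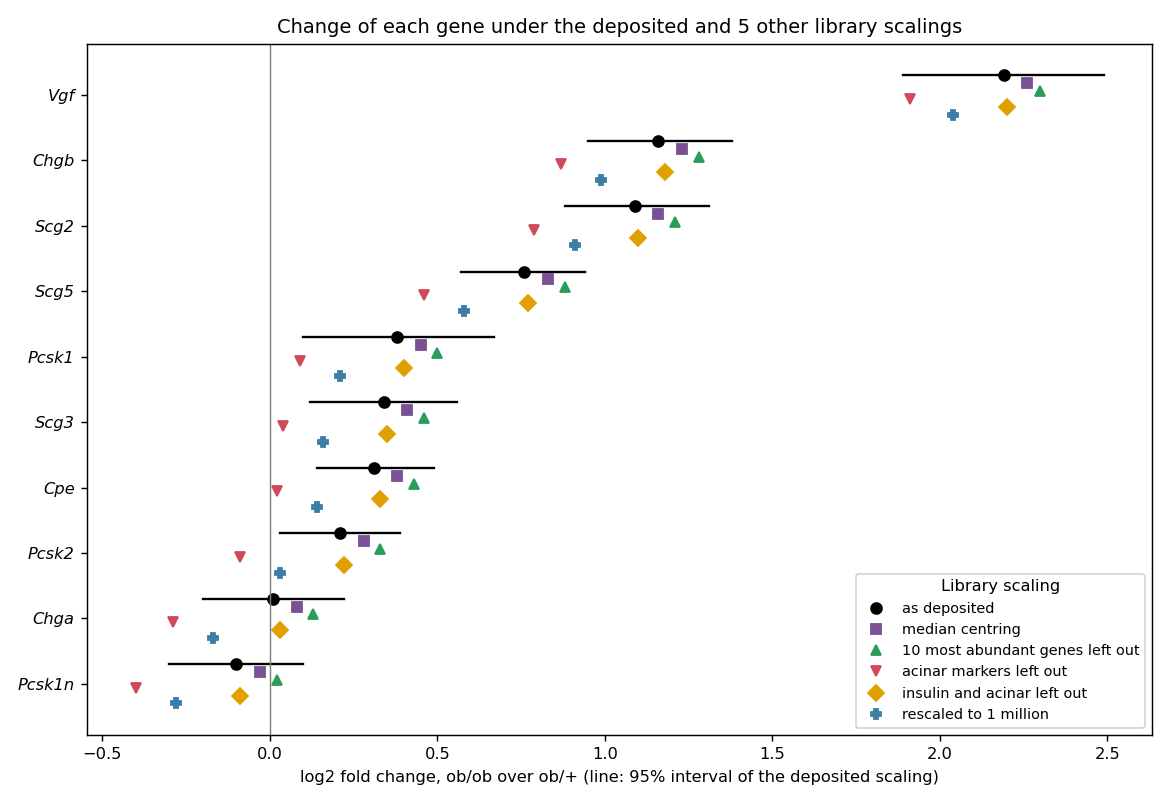
Log2 fold change of ob/ob over ob/+ (horizontal axis) for each gene, as deposited and under 5 other library scalings. Lines are 95% intervals of the deposited scaling; Vgf, Chgb, Scg2 and Scg5 stay to the right of 0 under each scaling, whereas Chga, Pcsk2 and Pcsk1n lie on both sides of it.

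Ratios within a library do not depend on the library total. For each ratio an exact permutation test, two-sided, used all 70 assignments of the 8 libraries; 0.0286 is the smallest p that 4 against 4 allow. P-values were adjusted over 8 ratios. The ratio of Scg5 to Pcsk2, the chaperone to its convertase, was 1.04, 0.887, 0.990 and 1.07 in ob/ob libraries, against 0.674, 0.678, 0.669 and 0.701 in ob/+ libraries. The groups did not overlap, and the ob/+ values were nearly equal. It averaged 0.997 ± 0.0812 in ob/ob and 0.681 ± 0.0143 in ob/+, 1.46 times as high in ob/ob (exact permutation p = 0.0286, adjusted 0.0572).

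The ratio of Chgb to Chga was 0.167, 0.157, 0.176 and 0.167 in ob/ob libraries, against 0.0733, 0.0766, 0.0730 and 0.0760 in ob/+ libraries. Within each group it was nearly constant, ob/+ 4 included, although that library had the lowest level of either gene. It averaged 0.167 ± 0.00806 in ob/ob and 0.0747 ± 0.00182 in ob/+, a 2.23-fold difference (exact permutation p = 0.0286, adjusted 0.0572). The ratio of Vgf to Chga, multiplied by 1000, averaged 6.22 ± 0.662 in ob/ob and 1.24 ± 0.179 in ob/+, a 5.06-fold difference with the same exact p and adjusted p.

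Set against insulin, the sum of Ins1 and Ins2, the mean levels of both convertases and of Cpe were lower in ob/ob libraries. Ins2 itself was higher in ob/ob (log2 fold change 0.56, limma adjusted p = 5.4e-05), and Ins1 did not pass (0.25, adjusted p = 0.216). As deposited, Cpe was called higher and neither convertase gene was called, so the lower ratios are no fall of the enzyme genes themselves. Pcsk2 over insulin, multiplied by 1000, ranged from 1.44 to 1.72 in ob/ob libraries, against 1.81 to 2.07 in ob/+ libraries. Every ob/ob value lay below every ob/+ value. The means were 1.57 ± 0.127 in ob/ob and 1.92 ± 0.118 in ob/+, or 0.819 times as high in ob/ob (exact permutation p = 0.0286, adjusted 0.0572). Pcsk1 over insulin, multiplied by 1000, averaged 0.275 ± 0.0264 in ob/ob and 0.298 ± 0.0409 in ob/+ (exact permutation p = 0.4). Cpe over insulin, multiplied by 1000, averaged 2.97 ± 0.311 in ob/ob and 3.36 ± 0.269 in ob/+ (exact permutation p = 0.143).

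The ratio of Pcsk1 to Pcsk2 averaged 0.175 ± 0.00316 in ob/ob and 0.156 ± 0.0214 in ob/+ (exact permutation p = 0.143). The ratio of the inhibitor Pcsk1n to Pcsk1 averaged 2.99 ± 0.566 in ob/ob and 4.21 ± 0.894 in ob/+ (exact permutation p = 0.0857, adjusted 0.137). Both overlapped between the groups. None of the 8 ratios passed an adjusted p of 0.05, which 4 of them missed at the smallest p the design allows.

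**Figure D3:**
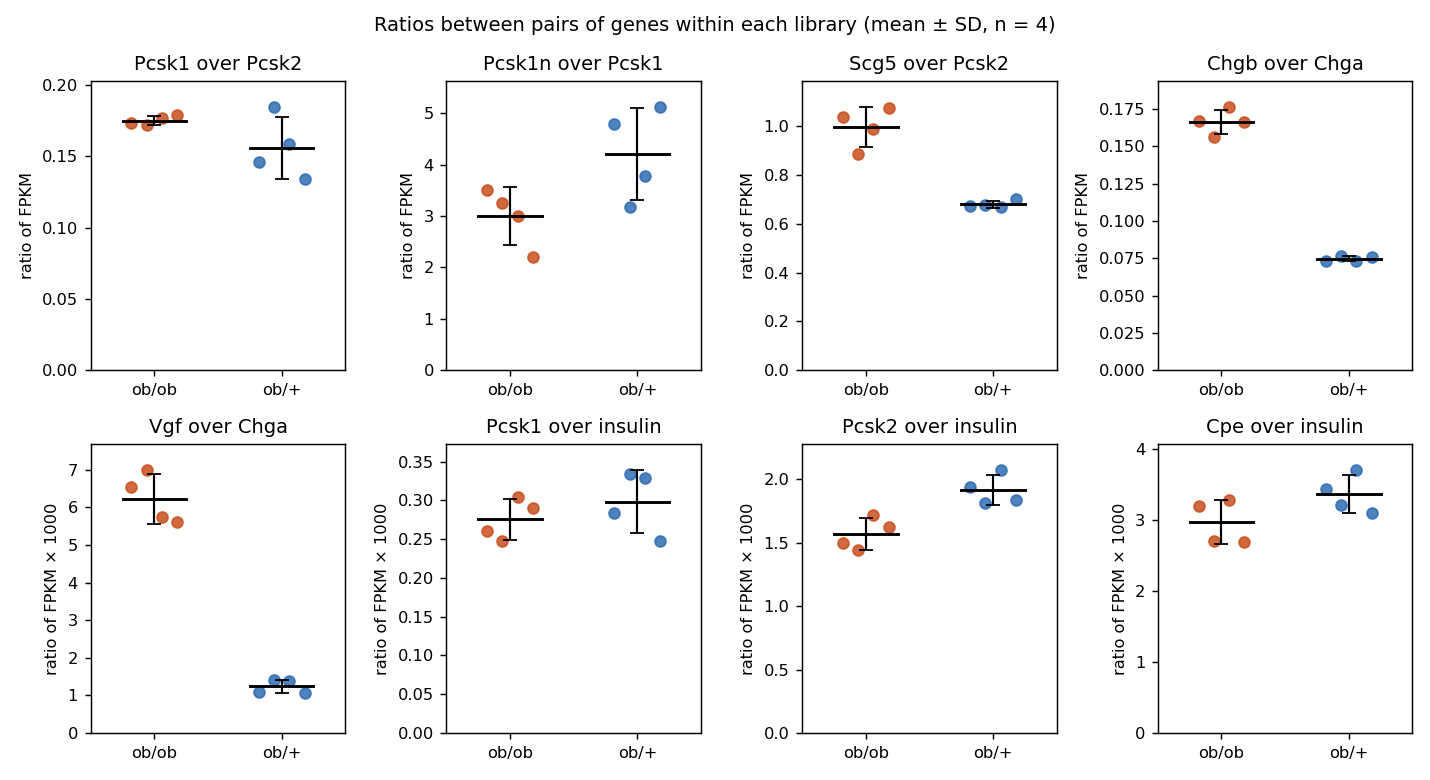
Ratio of the FPKM of gene pairs within each library (vertical axes, starting at 0; lower row multiplied by 1000), with ob/ob left of ob/+. Points are libraries, bars and whiskers the mean and SD (n = 4); Scg5 over Pcsk2, Chgb over Chga and Vgf over Chga are higher in every ob/ob library, and Pcsk2 over insulin is lower in every one.

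Marker genes of some cell types in the islet RNA moved with the genotype. Endothelial, macrophage and duct markers, with 5, 4 and 3 tested, had median log2 fold changes of -0.05, 0.10 and -0.04. Of these only 1 duct marker was called, as higher. Alpha cell markers summed to 7110 to 10070 FPKM in ob/ob libraries and 23680 to 30540 FPKM in ob/+ libraries, with 5 of 5 markers lower in ob/ob. Delta and PP cell markers summed to 2570 to 4073 FPKM in ob/ob libraries and 9862 to 13330 FPKM in ob/+ libraries, with 4 of 4 lower. Beta cell markers summed to 586100 to 708400 FPKM in ob/ob libraries and 396200 to 498000 FPKM in ob/+ libraries, with 2 of 8 higher and 3 of 8 lower. These sums consist almost wholly of Ins1, Ins2 and Iapp. The beta cell list had a median log2 fold change of -0.15. Ins2 (0.56) and Iapp (0.77) were higher, and Mafa (-1.15), Slc2a2 (-1.29) and Ucn3 (-0.60) were lower. Acinar markers summed to 33430 to 110100 FPKM in ob/ob libraries and 63780 to 222100 FPKM in ob/+ libraries. The 42 tested had a median log2 fold change of -0.78, and 37 of them did not pass the test. Of the others, 4 were higher (Prss1, Reg2, Reg3a and Reg3g) and 1, Cela3a, was lower. Prss1 reached 1 FPKM in ob/+ 4 but in no other ob/+ library. Cela3a reached the filter on low values through the ob/+ libraries alone. The part of these cell types in the values of the granins and enzymes was not tested. Neuron and glia markers, genes of another cell type that uses granins, summed to 30.0 to 36.1 FPKM in ob/ob libraries. In ob/+ libraries they summed to 56.9 to 75.2 FPKM, and their part in the values of the granins was not tested. Of their 10 genes 8 were tested, 3 of which (Phox2a, Chrna3 and Sox10) reached the filter on low values through the ob/+ libraries alone. Of the other 5, 0 were higher and 4 lower. Among these 4, Prph reached 1 FPKM in ob/ob 3 but in no other ob/ob library. Dbh was under 1 FPKM in every library.

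Other genes of the regulated secretory pathway were taken from 4 lists. Beside the counts that follow, 8.21% of all tested genes were called higher and 10.6% lower. Of 18 tested genes of 20 other processing and modifying enzymes, 4 were higher and 3 lower, with a median log2 fold change of 0.07. Pcsk4, a convertase best known from germ cells, averaged 16.0 ± 2.24 FPKM in ob/ob and 8.71 ± 1.62 FPKM in ob/+ (log2 fold change 0.81, limma adjusted p = 8.52e-05). Pam, the enzyme that amidates peptide ends after carboxypeptidase E has acted, rose as well (159.6 ± 17.2 FPKM in ob/ob and 112.8 ± 19.6 FPKM in ob/+, adjusted p = 0.00488). Of the enzymes that cyclise amino-terminal glutamine, the Golgi form Qpctl rose (log2 fold change 0.49, adjusted p = 0.00281), whereas Qpct, the secreted form, fell (-0.48, adjusted p = 0.00958) at a level of 0.983 ± 0.135 FPKM in ob/ob and 1.78 ± 0.417 FPKM in ob/+. Pcsk6 (log2 fold change -0.87, adjusted p = 9.97e-06) and the membrane carboxypeptidase gene Cpm (-0.52, adjusted p = 0.0045) also fell.

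Among 19 tested genes of 21 for granule formation and membrane proteins, 2 were higher and 3 lower, with a median of 0.09. Ptprn, a transmembrane protein of the granule, averaged 279.9 ± 24.1 FPKM in ob/ob and 153.7 ± 27.2 FPKM in ob/+ (log2 fold change 0.87, limma adjusted p = 9.22e-06). Hid1, which acts in granule formation, rose with a limma adjusted p of 0.0439. It was called higher in 5 of 8 settings of scaling and libraries, with log2 fold changes of 0.04 to 0.45. Sytl4, the granule-docking protein granuphilin, averaged 44.9 ± 4.89 FPKM in ob/ob and 79.1 ± 9.78 FPKM in ob/+ (-0.80, adjusted p = 4.53e-06). The granule zinc transporter gene Slc30a8 averaged 238.9 ± 22.4 FPKM in ob/ob and 363.3 ± 57.2 FPKM in ob/+ (-0.59, adjusted p = 2.46e-04). The fusion protein gene Vamp4 fell by 0.33 on the log2 scale (adjusted p = 0.0493).

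Subunits of the vacuolar ATPase, the proton pump that acidifies granules for the convertases, had a median of -0.20, with 1 of 19 tested genes (of 24 listed) higher and 7 lower. The subunit gene Atp6v1e1 averaged 76.3 ± 3.77 FPKM in ob/ob and 104.1 ± 7.80 FPKM in ob/+ (log2 fold change -0.44, limma adjusted p = 8.93e-04), and Atp6v0e2 rose (0.33, adjusted p = 0.0189). The count moved with the scaling of all genes. When the 10 most abundant genes were left out of the total, 0 of the 19 were lower, beside 629 of 11747 tested genes. When the acinar genes were left out, 15 of the 19 were lower, beside 6950 of 11747 tested genes. Of 29 genes for prohormones and neuropeptides, the substrates of the pathway, 20 were tested. Of these, 3 reached the filter on low values through 1 group alone and are given as values only. Cck, the precursor of cholecystokinin, had 6.60 to 11.5 FPKM in ob/ob libraries and under 1 FPKM in each ob/+ library. Gast, the precursor of gastrin, had 4.82 to 6.28 FPKM in ob/ob libraries and 0.27 to 0.67 FPKM in ob/+ libraries. Penk, the precursor of enkephalins, had 0.16 to 0.64 FPKM in ob/ob libraries and 2.30 to 2.98 FPKM in ob/+ libraries. Of the other 17, 5 were higher and 9 lower, with a median of -0.80. Among these 9, Tac1 reached 1 FPKM in ob/ob 3 but in no other ob/ob library. Nucb2, the precursor of nesfatin, averaged 383.4 ± 44.9 FPKM in ob/ob and 119.7 ± 17.9 FPKM in ob/+ (log2 fold change 1.68, adjusted p = 5.73e-11). Sst (-2.20, adjusted p = 1.37e-13) and Gcg (-1.68, adjusted p = 1.27e-09), the precursors of somatostatin and glucagon, fell.

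**Figure D4:**
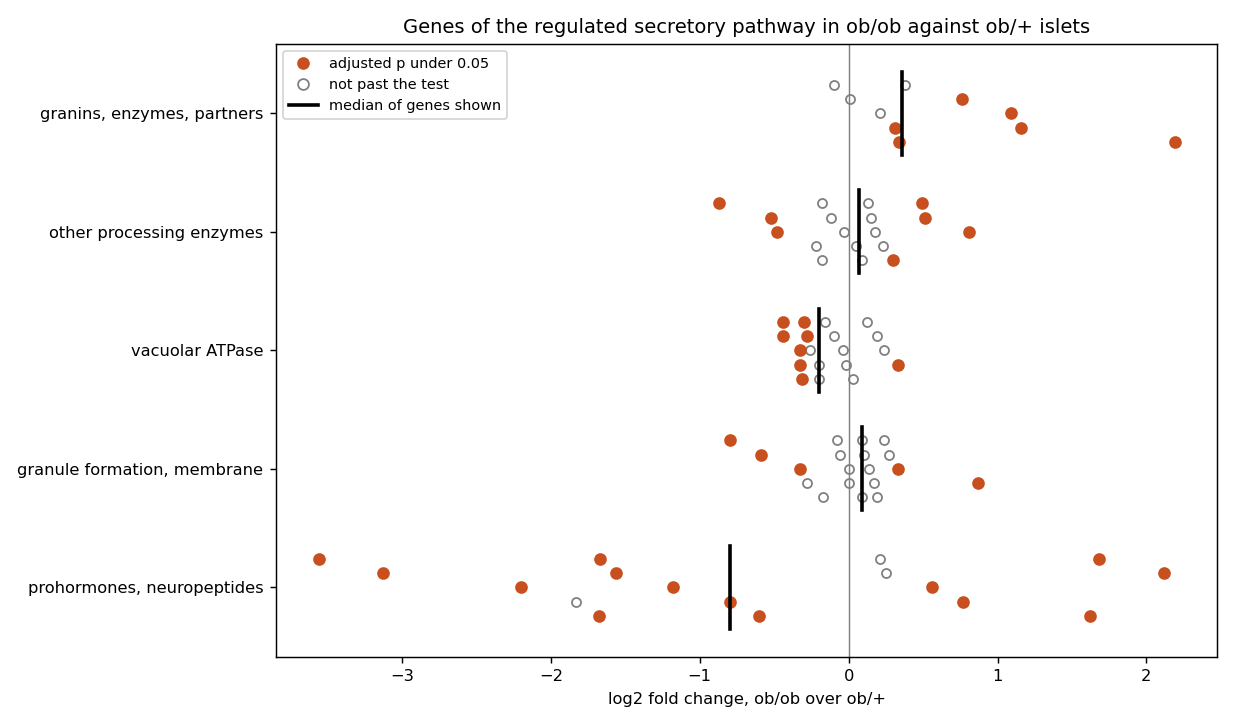
Log2 fold change of ob/ob over ob/+ (horizontal axis) for the tested genes of the 10 described here and of 4 lists of the secretory pathway, 1 point per gene, spread vertically for visibility, without 3 prohormone genes that reached the filter through 1 group alone. Filled points passed the test and black bars mark medians; the 10 genes have a median of 0.36 and no called fall, the vacuolar ATPase list a median of -0.20 and the prohormone list genes on both sides.

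The genes most like Vgf, the gene of the largest rise, were sought by the root mean square difference of log2 values over the 8 libraries, each gene taken relative to its own ob/+ mean. The search covered 4771 tested genes with a mean of at least 10 FPKM, predicted genes left out. The nearest was Gc, the vitamin D-binding protein gene, at a distance of 0.173, with 349.3 ± 32.1 FPKM in ob/ob and 74.1 ± 17.5 FPKM in ob/+. Gucy2c, a guanylate cyclase receptor gene, followed at 0.21, with 30.4 ± 2.65 FPKM in ob/ob and 5.21 ± 0.977 FPKM in ob/+. Cd44, a cell surface receptor gene for hyaluronan, came next at 0.273, with 24.5 ± 1.40 FPKM in ob/ob and 5.77 ± 0.616 FPKM in ob/+. These genes were chosen for the likeness, so no test is given.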

How the data were processed

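Islets were isolated with collagenase, purified on a density gradient and hand-picked before RNA was sequenced, per the labels' protocols. The authors deposited 1 table of FPKM values per library; no source names the unit, which was inferred from the values. The submitters' processing notes name Trimmomatic 0.36, DESeq2 1.20.0, mm10 and GRCm38 but give them no role. Which aligner and quantifier were used is not given in the sources used here. Of 20715 listed genes, 3314 had no value in any library. FPKM carry no counts, so depth and counting errors are unknown.

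The 11747 genes that reached 1 FPKM in 4 or more libraries were tested after log2 transformation with a pseudocount of 1. The test was limma 3.58.1 in R 4.3.3, two-sided, with the trend and robust options (statmod 1.5.0) and Benjamini-Hochberg adjustment over all tested genes, at a threshold of 0.05. On this scale the log2 fold change of a low gene is understated. A change given as a fold is a ratio of mean FPKM, or, for ratios between genes, of geometric means. Ratios between genes were compared by exact permutation tests in SciPy 1.17.1. The limma script was checked on simulated data. The genes, lists, ratios and tests were chosen with earlier results of these data known. Of each list, up to 3 genes a direction with the smallest p could be named. Gene positions come from GENCODE on GRCm38 and promoters from RefSeq on GRCm38.p6, which differ in where some of these genes start. Alternatives changed the scaling, the filter, the pseudocount, the robust option, a replicate block and the libraries included. Leaving insulin and acinar genes together out of the total was added after the data were seen.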

Additional observations from a re-analysis of the deposited data

Results flagged for a closer look

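The level of Cpe in ob/+ 4, 1142 FPKM, stood apart from the other ob/+ libraries, which lay between 1449 and 1501 FPKM. Its gap to the nearest of them was 0.855 of the group's range, above Dixon's 95% critical value for 4 libraries. It was 1 of 36 groups of 4 looked at, and chance flags about 1 in 20 groups. Acinar genes took 25.2% of the summed FPKM in that library. Without ob/+ 4 the log2 fold change of Cpe was 0.22, beside 0.31 with it, and its call held.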

How the results depend on the processing

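Vgf, Chgb, Scg2 and Scg5 kept their direction and their call under all 20 alternatives; Cpe was called in 16, Scg3 in 11, Pcsk1 in 8, Pcsk2 and Pcsk1n in 2 and Chga in 1. The number of genes called, 2208 as reported, was 3429 under median centring, 3465 under upper-quartile scaling, 7440 with acinar genes left out of the total, 3645 rescaled to equal sums, 1078 with a filter at 10 FPKM, 4000 without ob/+ 4 and ob/ob 1 together, and from 1434 to 4832 with 1 library left out, the highest without ob/+ 4. The share of calls that were higher in ob/ob was 43.7% as reported, 66.9% without the 10 most abundant genes in the total, 6.59% without acinar genes, 14.3% rescaled to equal sums, 22.8% without ob/+ 4 and 25.3% without ob/+ 4 and ob/ob 1 together. The number of the 10 genes called lower, 0 as reported, was 2 with acinar genes left out and 1 rescaled to equal sums. Of 11747 tested genes, 6950 and 3124 were lower under these scalings. Signs turned for Chga at -0.29 with acinar genes left out, -0.17 rescaled to equal sums, -0.07 without ob/+ 4 and ob/ob 1 together and between -0.11 and 0.07 with 1 library left out, for Pcsk2 at -0.09 with acinar genes left out, and for Pcsk1n at 0.02 without the 10 most abundant genes. Without ob/+ 4 and ob/ob 1 together Scg3 (limma adjusted p = 0.0698) and Cpe (0.0732) lost their calls; so did both without the robust option (0.0901 and 0.0967), and Scg3 without a filter (0.0766). The cause was not tested. The deviations of same-numbered libraries had correlations of -0.22, 0.212, 0.172 and 0.124 for numbers 1, 2, 3 and 4. Those for 2, 3 and 4 were each the highest of their ob/ob library. Libraries of unlike number had -0.189 to 0.194, and whether the numbers pair the libraries is not settled by these values. With a replicate block 2674 genes were called and the same 6 of the 10 genes were higher. None of the 8 ratios changed direction. With the block the design is too small for any ratio to pass the threshold, and with 1 library left out no p-value was computed for the ratios. Precision is limited by 4 libraries a group, and FPKM carry no depth.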
